A study of Mesocricetus auratus with 10 samples.

Results

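The 8 genes described here, AHSG, FETUB, LECT2, FGF21, GDF15, HGF, AGT and TTR, encode proteins that the liver releases into the blood and that act on other tissues or carry hormones. They were taken by name: every probe of the array whose deposited gene name was one of the 8, whatever its value, which gave 29 of the 116452 probes. All 29 probes passed the filter on dim signals, so that each of the 8 genes was among the 13881 tested. Livers of 10 male golden hamsters (Mesocricetus auratus) on a high fat diet (HFD) were each set against 1 pool of liver RNA from 10 hamsters on a standard diet (STD), also male by the labels. The labels give neither the age of the animals, nor the time on the diet, nor the fat source. Each HFD liver was hybridised on a pair of 2-colour arrays with swapped dyes, 20 arrays in all for 10 animals. Values are log2 ratios, HFD liver over pool, averaged over the 2 arrays of an animal, with the SD between the 10 animals. A gene was called when its adjusted p was under 0.05 in limma's moderated test of the mean ratio against 0 (two-sided, Benjamini-Hochberg over all genes). Because no STD liver was hybridised singly, the variation among control animals is absent from every test, and all 10 ratios share the same denominator.

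As background, the 8 proteins fall into several roles. AHSG (fetuin-A) and FETUB (fetuin-B) are paralogs of the cystatin superfamily made in hepatocytes. Fetuin-A binds calcium phosphate in plasma and inhibits the insulin receptor, and fetuin-B is an inhibitor of the egg-coat protease ovastacin. LECT2 is a chemotactic protein of hepatocytes and a known target of beta-catenin. FGF21 and GDF15 are hormones induced in stressed liver. FGF21 acts through FGF receptors with the co-receptor beta-klotho, and GDF15 acts through GFRAL in the hindbrain. HGF, made mainly by the non-parenchymal cells of the liver, is the ligand of the receptor MET on hepatocytes. AGT is the precursor of the angiotensins, and TTR carries thyroxine and, bound to RBP4, retinol. Fatty liver and insulin resistance are the settings in which most of them are studied.

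The probes are 60 bases long and were designed on assembled hamster transcripts rather than on a genome, and no genome position is given for them here. All 8 names occur among the symbols of RefSeq's hamster annotation. The sequences below are shown because the results rest on them: the brightest probe of each gene whose ratio differed from 0, the second probe of LECT2, the gene with the lowest ratio, and the brightest probe of AGT as a gene that did not pass the test. They are written as the array's design gives them, 5′ to 3′, with every triplet TAA, TAG or TGA in capitals.
LECT2, probe 46172: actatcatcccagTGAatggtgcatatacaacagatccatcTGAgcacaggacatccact
LECT2, probe 46171: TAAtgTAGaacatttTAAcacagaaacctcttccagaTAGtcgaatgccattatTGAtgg
AHSG, probe 50581: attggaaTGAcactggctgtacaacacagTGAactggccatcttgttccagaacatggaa
FETUB, probe 68774: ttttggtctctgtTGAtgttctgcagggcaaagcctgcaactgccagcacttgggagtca
FGF21, probe 44476: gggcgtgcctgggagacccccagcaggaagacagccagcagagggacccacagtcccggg
GDF15, probe 24303: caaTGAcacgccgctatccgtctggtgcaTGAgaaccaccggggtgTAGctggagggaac
HGF, probe 29752: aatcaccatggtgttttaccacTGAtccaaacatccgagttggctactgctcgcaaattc
AGT, probe 71760: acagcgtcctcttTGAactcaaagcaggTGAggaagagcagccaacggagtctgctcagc

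The capitals bear on a limit of the design. The files do not state which strand of a transcript a probe holds, and at least 1 reading frame free of the 3 stop triplets was present on both strands in 24 of the 29 probes. A stop triplet in every frame of the printed strand, but not of its reverse, was found in 3 probes: LECT2 46171, GDF15 24303 and FETUB 68773. The opposite case was found in HGF 29752 and 1 AGT probe. Over the whole array 8.0% of probes were open on the reverse strand alone and 10.8% on the printed strand alone. Strand mattered to the ratios elsewhere on the array. Across 2743 pairs of kept probes that share at least 40 bases on the same strand, the mean ratios correlated at r = 0.971, whereas 974 such pairs on opposite strands correlated at r = 0.284. These pairs are not independent, and the correlations are given as a description. Whether each member's probes read the coding strand was not tested, and the names used here are those of the array's design.

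The arrays were not equal. The share of probes well above background per array was 77.5% to 97.8% for HFD RNA and 77% to 96.9% for the pool, and no spot was saturated. The 6 arrays with HFD in Cy3 of animals 5 to 10 stood apart. Among themselves their ratios correlated across genes at r of 0.838 to 0.926, and with the other 14 arrays at 0.372 to 0.785. On the first principal component of the 20 arrays, 46.8% of the variance, the 6 lay between 19.9 and 33.1 and the other 14 between -16.8 and -0.7. Values without these 6 arrays are given beside the members and the called genes whose ratio they move by more than 1.5-fold. They come from limma on single arrays with the animal as a random block. A dye term gave both dye orientations the same weight, so they are not plain means of the 14 arrays. This comparison was added after the arrays had been seen. The arrays were scanned in 3 sessions, the first of which holds 1 array of each animal.

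Of the 8 genes, 5 were lower in HFD liver (LECT2, FGF21, AHSG, FETUB and HGF), 1 was higher (GDF15) and 2 did not pass the test (AGT and TTR). Among all 13881 genes 28.8% were lower and 31.3% higher by the same rule, so that passing the test was common on these arrays. The counts of called genes in the lists below are to be read beside these shares. By size, LECT2 stood out from the other members: it had the 24th lowest ratio of all genes, so that 0.173% of genes were as low or lower. LECT2, AHSG and FETUB were below the pool in 10 of 10 animals, which held for 15.1% of all genes, and GDF15 was above it in 10 of 10, which held for 16.3%. At the level of probes, 13 of the 29 were lower, 3 higher and 13 not called, against 28.3% lower and 26.7% higher of the 104182 probes tested.

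**Figure D1:**
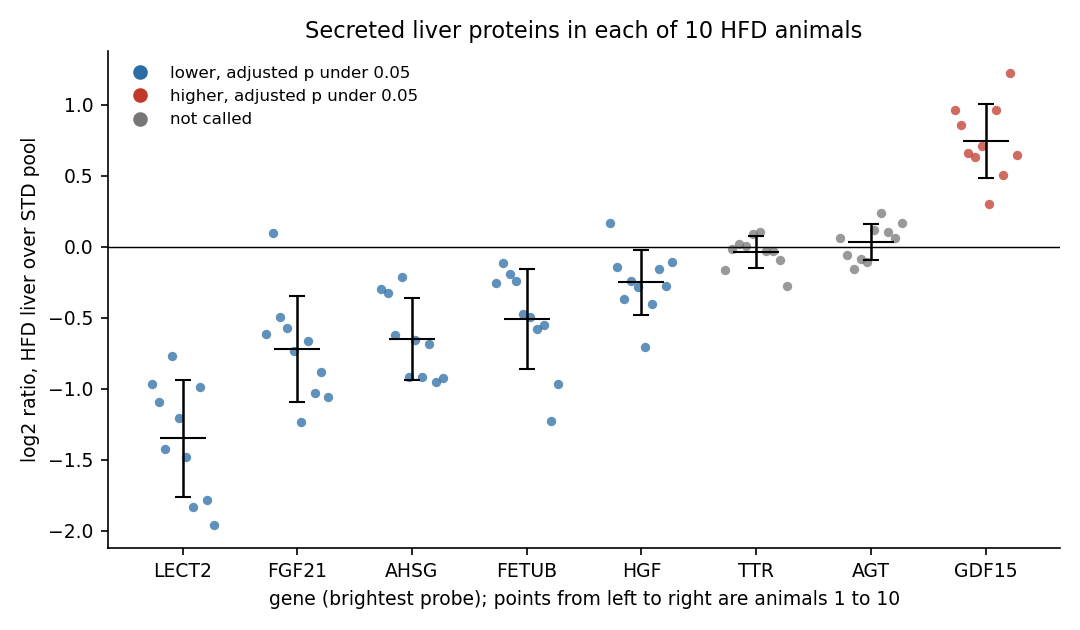
Log2 ratio of HFD liver over the STD pool (vertical axis) for the brightest probe of each gene (horizontal axis), with 1 point per animal in the order 1 to 10 and the mean ± SD of the 10 animals in black. LECT2 lies below all other members on average (-1.35), GDF15 is the only member above 0 in all animals, and TTR and AGT scatter around 0.

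LECT2 fell most. Its level in HFD liver was 39.2% of the pool on average, between 25.7% and 58.7% in single animals. On the log2 scale the lowest animal was at -1.96 (animal 10), the median at -1.32 and the highest at -0.77 (animal 4). The mean was -1.35 ± 0.41 (SD, n = 10; adjusted p = 4.54e-07, limma). No animal came near the pool. The second LECT2 probe, 46171, gave -1.26 ± 0.34, and the 2 probes differed by at most 0.27 in any animal. Their ratios over the 10 animals correlated at r = 0.966, a description over probes that share each animal's RNA. The mean was -1.11 without the 6 arrays. One stretch of 18 bases of probe 46172 is shared, on the opposite strand, with a probe of TFDP2; its part in the ratio was not tested.

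The LECT2 receptor TIE1 and TEK, a receptor of the same family, were listed with targets of beta-catenin, the pathway that drives LECT2 in the liver. Of 13 measured genes of this list of 18, 5 rose, 4 fell and 4 did not pass the test, with a median of 0.03 against 0.01 for all genes. CTNNB1, beta-catenin itself, rose by 0.23 ± 0.10 (n = 10), and SLC1A2, a glutamate transporter of pericentral hepatocytes, by 0.23 ± 0.14. AXIN2, a feedback inhibitor of the pathway, was lower by its brightest probe (-0.39 ± 0.17), while 2 of its 3 probes were higher and their mean, -0.04, did not pass. OAT, an aminotransferase of pericentral hepatocytes, fell by 0.25 ± 0.38 and was lower in 8 of 10 animals, a call lost when any 1 of animals 1 to 6 or 9 was left out. The list shows no common direction, and TIE1 (-0.06 ± 0.10) and TEK (0.03 ± 0.08) did not pass the test.

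The fetuins AHSG and FETUB both fell. AHSG stood at 63.7% of the pool on average. Its lowest animal was at -0.955 (animal 9), the median at -0.67 and the highest at -0.21 (animal 4), with a mean of -0.65 ± 0.29 (n = 10; adjusted p = 1.21e-05, limma). FETUB stood at 70.2% of the pool, with the lowest animal at -1.23 (animal 9), the median at -0.48 and the highest at -0.12 (animal 2). Its mean was -0.51 ± 0.35 (adjusted p = 0.00043, limma). Every probe of both genes agreed in direction in each of the 10 animals: the 4 AHSG probes gave means between -0.75 and -0.63 and the 3 FETUB probes between -0.58 and -0.46.

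The size of both falls rested in part on the arrays that stood apart. On the Cy3 arrays of animals 5 to 10, AHSG lay between -1.24 and -0.70 and FETUB between -1.79 and -0.69. On the Cy3 arrays of animals 1 to 4, AHSG lay between -0.30 and 0.14 and FETUB between -0.18 and 0.04. The 6 arrays stood apart across genes, and the share of all genes split in this way was not counted. On the arrays with HFD in Cy5 all 10 animals were below the pool for both fetuins, at -0.94 to -0.43 for AHSG and -0.67 to -0.22 for FETUB. Without the 6 arrays the means, with both dye orientations weighted alike, were -0.41 for AHSG (adjusted p = 3.55e-06 over all probes, limma) and -0.22 for FETUB (adjusted p = 0.00057 over all probes, limma).

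The paralogs did not differ beyond the spread between animals. AHSG minus FETUB within an animal was -0.14 ± 0.23 (95% confidence interval -0.30 to 0.02), with AHSG lower in 7 of 10 animals (exact sign permutation test, two-sided, p = 0.084, adjusted over 4 gene pairs 0.112). Without animal 9 the difference was -0.19 and passed (adjusted exact permutation p = 0.026), and with HFD in Cy5 alone it was -0.31 and passed (0.0026). From animal to animal the 2 genes ran together (r = 0.77, rho = 0.867, n = 10), but the adjusted permutation p over all 28 pairs of members was 0.118. On the arrays with HFD in Cy5 alone the same r was 0.151, and on those with HFD in Cy3 alone 0.915. Within scan session 1, with 1 array of each animal and the mean of each dye orientation subtracted first, it was 0.835. Of the other cystatin-superfamily genes on the list, SPP2 (-0.03 ± 0.11) and CST6 (0.09 ± 0.14) were measured and neither passed the test. Without the 6 arrays CST6 was at 0.17 and was called (adjusted p = 0.0351, limma), and SPP2 was at -0.07 and was not.

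The insulin receptor and proteins that restrain it were taken beside AHSG. Of these 7 genes 2 rose, 3 fell and 2 did not pass the test. PTPN1, a phosphatase that dephosphorylates the receptor, rose by 0.58 ± 0.21 in 10 of 10 animals, and TLR4, a receptor of innate immunity for which fetuin-A has been described as an adaptor, by 0.33 ± 0.11 in 10 of 10. Averaged over its 11 probes PTPN1 rose by 0.25, and TLR4 rose by 0.77 in the processed signals of the scanner. ENPP1, an inhibitor of the receptor, fell by 0.26 ± 0.16, GRB14, an adaptor that blocks its kinase, by 0.21 ± 0.08, and INSR itself by 0.11 ± 0.14 (0.17 without the 6 arrays). All 16 INSR probes were lower, and their mean was -0.47. The proteins known to restrain the receptor thus moved in both directions.

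FGF21 fell and GDF15 rose. FGF21 stood at 60.8% of the pool, with the lowest animal at -1.24 (animal 6), the median at -0.70 and the highest at 0.09 (animal 2). Its mean was -0.72 ± 0.37 (n = 10; adjusted p = 4.38e-05, limma). Animal 2 was the only one above the pool, and its second probe, 44474, was below it there, at -0.28 against 0.09. Over all animals the second probe gave -0.78 ± 0.28. Without animal 2 the mean of the brightest probe was -0.81, and without the 6 arrays that stood apart it was -0.51. Signals of FGF21 were dim, with a median of 311 intensity units in HFD RNA and 421 in the pool, but well above background on all 20 arrays in both.

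GDF15 stood at 167% of the pool. The lowest animal was at 0.30 (animal 6), the median at 0.68 and the highest at 1.22 (animal 9), with a mean of 0.74 ± 0.26 (n = 10; adjusted p = 1.99e-06, limma). The 3 GDF15 probes were above 0 in every animal but differed in size, at 0.74, 0.56 and 0.30, by up to 0.70 within an animal. GDF15 gave dim signals, with a median of 100.3 intensity units in the pool for its brightest probe, and its size depended on how background was treated. It was 1.60 with the scanner software's processed signals, 1.37 in the authors' deposited log2 ratios and 1.01 with an offset of 16 in place of 50. The direction held under each of these, and the mean was 0.84 without the 6 arrays.

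**Figure D2:**
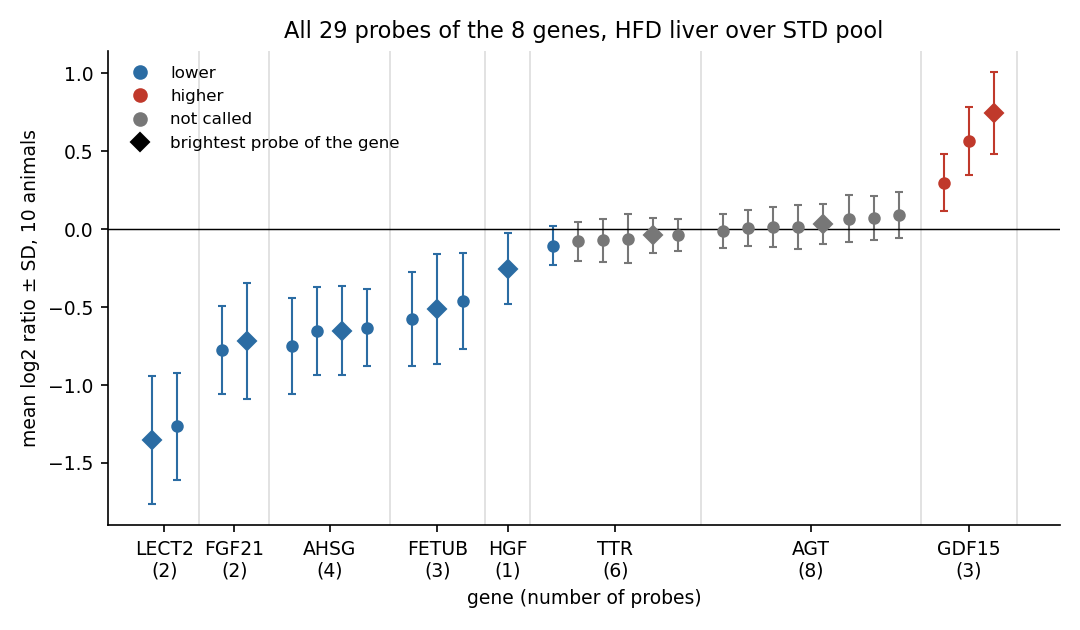
Mean log2 ratio over 10 animals ± SD (vertical axis) for each of the 29 probes, grouped by gene (horizontal axis, with the number of probes), coloured by the test over all probes; diamonds mark the brightest probe. Probes of a gene lie on the same side of 0 except those of AGT, and the 3 GDF15 probes spread from 0.30 to 0.74.

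Within animals FGF21 was lower than GDF15 by 1.46 ± 0.36 on the log2 ratio (95% confidence interval -1.72 to -1.20 for FGF21 minus GDF15), in 10 of 10 animals. The exact sign permutation test gave p = 0.002, the smallest 10 animals allow, and 0.0078 adjusted over 4 gene pairs. In every animal GDF15 was at 0.30 or more and FGF21 at 0.09 or less, so that this outcome was fixed. The test adds nothing to the calls of the single genes. The difference was larger with the processed signals (-2.51) and in the authors' deposited log2 ratios (-2.25). Each gene's ratio is taken to its own level in the pool, so this compares changes and not levels.

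The list of stress regulators and targets taken beside FGF21 and GDF15 held calls in both directions. GFRAL and CHAC1 were not measured. Of 12 measured genes of 14 on that list, 5 rose, 4 fell and 3 did not pass the test. Among all genes tested 31.3% were higher and 28.8% lower. DDIT3, the transcription factor CHOP that is known to drive GDF15 in stressed cells, rose by 0.67 ± 0.41, and TRIB3, a pseudokinase induced by it, by 0.65 ± 0.43, each in 10 of 10 animals. ATF5, a stress-induced transcription factor, fell by 0.81 ± 0.16 and EGR1, an immediate-early transcription factor, by 0.72 ± 0.30, each lower in 10 of 10. Among the other calls ATF4 (-0.47) fell, and ATF3 (0.38), ASNS (0.32) and RET (0.11) rose. With the 6 arrays left out, ATF4 was at -0.21 and ATF3 at 0.18, each still called.

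On the receptor side, 10 of 11 listed genes of FGF21 signalling and regulation were measured, of which 5 fell and 3 rose (5 and 2 without the 6 arrays). FGFR4, the main FGF receptor of hepatocytes, fell by 0.54 ± 0.07, and KLB, which encodes beta-klotho, by 0.51 ± 0.16, each lower in 10 of 10 animals and by all of its 5 and 7 probes. PPARA, the fatty acid receptor that induces FGF21 in fasting, fell by 0.32 ± 0.24, and its partner factor CREB3L3 by 0.29 ± 0.15 (0.18 without the 6 arrays). MLXIPL, the carbohydrate-responsive factor ChREBP, rose by 0.59 ± 0.16 in 10 of 10 and by all 8 probes. RXRA was higher by its brightest probe (0.47 ± 0.19), but 5 of its 9 probes were lower, the mean of its probes was -0.10, and without the 6 arrays the brightest was at 0.26. Averaged over its probes, FGFR4 fell by 0.24 and PPARA by 0.58. FGFR1 was lower by its brightest probe (-0.13 ± 0.07) but averaged -0.0067 over its 4 probes. Without the 6 arrays its brightest probe was at -0.085 and was not called.

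HGF fell by a small amount. The lowest animal was at -0.70 (animal 6), the median at -0.26 and the highest at 0.17 (animal 1), with 9 of 10 animals below the pool. The mean was -0.25 ± 0.23 (n = 10; adjusted p = 0.0034, limma), 84.0% of the pool. It rests on the single HGF probe of the array, and was -0.21 without the 6 arrays. The 2 arrays of an animal gave like values, with a mean of -0.28 with HFD in Cy5 and -0.22 in Cy3. The receptor gene MET fell by 0.13 ± 0.12 (0.19 without the 6 arrays), but not in both dye orientations. With HFD in Cy5 MET was below the pool in every animal, at -0.51 (animal 3) to -0.18 (animal 10). With HFD in Cy3 it lay on both sides of 0, between -0.22 (animal 2) and 0.39 (animal 10). HGF minus MET was -0.13 ± 0.24 (95% confidence interval -0.30 to 0.04, exact sign permutation p = 0.123, adjusted 0.123). Without animal 1, the 1 animal in which HGF was above the pool, it was -0.17 and passed (adjusted exact permutation p = 0.0391). With HFD in Cy3 alone it was -0.25 and passed (0.0391), and with HFD in Cy5 alone it was -0.0016 and did not (0.986).

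All 12 listed genes around HGF were measured: 6 rose, 4 fell and 2 did not pass the test. SERPINA5, an inhibitor of the HGF activator, fell by 0.76 ± 0.53 and HPN, the hepatocyte protease hepsin that activates HGF, by 0.32 ± 0.11, each lower in 10 of 10 animals. PLAU, the urokinase protease, rose by 0.46 ± 0.23 in 10 of 10, and by 0.99 with the processed signals. PLAT, the tissue plasminogen activator, was higher by its brightest probe (0.13 ± 0.07), with a mean of -0.05 over its 8 probes. The other calls, MST1, GAB1, MST1R, SPINT2 and HGFAC, were at or under 0.10 in size, and SPINT2 averaged -0.04 over its 5 probes. HPN was at -0.19 without the 6 arrays, and 3 genes of the list rose and 3 fell, with the calls of MST1, GAB1, MST1R and HGFAC lost.

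AGT and TTR did not pass the test. AGT lay between -0.16 (animal 3) and 0.23 (animal 7), with a median of 0.06 and a mean of 0.03 ± 0.13 (n = 10; adjusted p = 0.484, limma; 95% confidence interval -0.06 to 0.13). None of its 8 probes, on 2 assembled transcripts, was called, and their means ran from -0.01 to 0.09. TTR lay between -0.27 (animal 10) and 0.10 (animal 6), with a median of -0.02 and a mean of -0.04 ± 0.11 (adjusted p = 0.346; 95% confidence interval -0.12 to 0.04). Of its 6 probes 1, probe 13635, was lower (-0.11 ± 0.12, adjusted p = 0.0288 over all probes), and it shares 40 bases with 2 of the others. Without the 6 arrays 3 TTR probes were lower, 13635 and 63350 at -0.14 each and 23248 at -0.12 (adjusted p of 0.0209, 0.0236 and 0.0455 over all probes, limma). The brightest probes of TTR (-0.08) and AGT (-0.05) did not pass there either. Both genes gave bright signals in both RNAs on all 20 arrays, at least 813.7 intensity units for every AGT probe and 49999 for every TTR probe.

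The near-zero means of AGT and TTR came from dye orientations of opposite sign. With HFD in Cy5, TTR was above the pool in 10 of 10 animals (0.53 ± 0.17), and with HFD in Cy3 below it in 10 of 10 (-0.61 ± 0.08). AGT was -0.11 ± 0.13 with HFD in Cy5, below the pool in 7 of 10 animals, and 0.18 ± 0.18 with HFD in Cy3, above it in 8 of 10. A dye effect cancels in the mean of an animal's 2 arrays only as far as it is equal in both. For LECT2, FGF21, AHSG, FETUB, HGF and GDF15 both orientations gave a mean of the same sign.

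**Figure D3:**
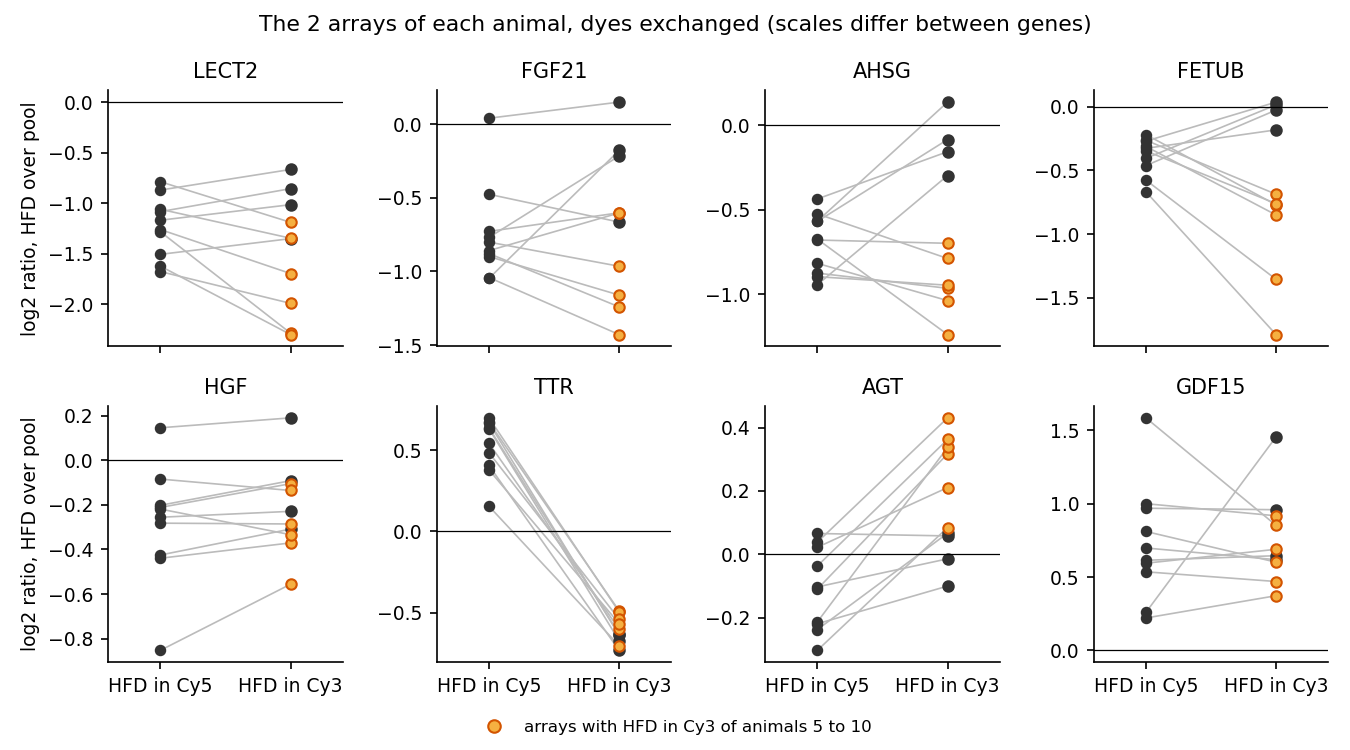
Log2 ratio of HFD liver over the pool (vertical axis, scaled per gene) on the 2 arrays of each animal, joined by a line, with the 6 arrays that stood apart in orange. TTR crosses from 0.53 to -0.61 on average, while LECT2 and GDF15 keep their side of 0 in every animal. AHSG, FETUB, LECT2 and FGF21 are on average lowest on the orange arrays.

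The systems around AGT and TTR moved unevenly. Of 10 measured genes of 15 in the renin-angiotensin list, 3 rose, 2 fell and 5 did not pass the test (2 and 2 called without the 6 arrays). CTSD, the lysosomal protease cathepsin D, rose by 0.57 ± 0.18 and by 9 of 9 probes. ATP6AP2, the prorenin receptor, was higher by its brightest probe (0.54 ± 0.19), with 3 of its 8 probes higher and 2 lower, and their mean, 0.04, did not pass. MME, the peptidase neprilysin, fell by 0.39 ± 0.25, and the receptor gene AGTR1B by 0.18 ± 0.16. Around TTR, 10 of 12 listed genes were measured, of which 4 fell and 1 rose. DIO1, the hepatic deiodinase, fell by 0.52 ± 0.33 and THRB, the main thyroid hormone receptor of liver, by 0.44 ± 0.23, each lower in 10 of 10 animals; over its 9 probes THRB averaged -0.20. SLC16A10, a transporter of aromatic amino acids and thyroid hormone, rose by 0.41 ± 0.19, and by 0.215 over its 4 probes.

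RBP4, the partner of TTR in plasma, fell by 0.18 ± 0.08 in 10 of 10 animals on the average of an animal's 2 arrays. As for TTR, this mean joins dye orientations of opposite sign. With HFD in Cy5 RBP4 was above the pool in every animal, at 0.085 (animal 8) to 0.25 (animal 6). With HFD in Cy3 it was below the pool in every animal, at -0.70 (animal 1) to -0.29 (animal 9). TTR minus RBP4 within an animal was 0.14 ± 0.14 (95% confidence interval 0.04 to 0.24), higher in 8 of 10 (exact sign permutation p = 0.0195, adjusted over 4 pairs 0.0391). The call was lost in the authors' deposited log2 ratios (adjusted exact permutation p = 0.0586) and when any 1 of animals 2 to 8 was left out (0.0625 to 0.0781). With HFD in Cy3 alone the difference turned to -0.12 and passed in that direction (adjusted exact permutation p = 0.0039), while with HFD in Cy5 alone it was 0.40 and passed (0.0026).

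Hepatocytes make most of these proteins, and most markers of that cell type were lower in HFD liver. Of the members, AGT (0.03) and TTR (-0.04) did not pass the test, and HGF, made mainly by other cells, fell. Whether the markers varied with the members from animal to animal was not tested. Of 13 measured hepatocyte markers 11 fell and 1 rose, with a median of -0.41, and their mean per animal lay between -0.77 and -0.34, below 0 in 10 of 10 animals. The fibrinogen chain FGB (-1.17 ± 0.40) and the urea-cycle enzyme ARG1 (-1.15 ± 0.27) fell most, CYP2E1 (-0.02 ± 0.11) did not pass the test and APOB rose by 0.27 ± 0.15. Without the 6 arrays 9 fell and none rose, with a median of -0.33, and APOB was at 0.12. A change in the share of hepatocytes and a change in the RNA of single genes within hepatocytes cannot be told apart in these bulk samples. The part of either in the ratios of LECT2, AHSG and FETUB was not tested.

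Markers of the other cell types moved less uniformly. Of 11 markers of macrophages and Kupffer cells 5 rose and 3 fell, with the galectin LGALS3 (1.30 ± 0.37) and the lysosomal protein CD68 (0.84 ± 0.34) highest and the scavenger receptor CD163 (-1.25 ± 0.32) and the complement gene C1QA (-0.56 ± 0.30) lowest. Their mean per animal lay between -0.09 and 0.31. Stellate cells and fibroblasts, a source of HGF, gave 4 risen and 4 fallen markers of 13, from DCN (-0.25 ± 0.26) and LUM (-0.24 ± 0.20), both proteoglycan genes (over its 5 probes LUM averaged -0.05 and did not pass), to RGS5 (0.46 ± 0.30), a pericyte gene, and the collagen gene COL1A1 (0.51 ± 0.22; 0.25 without the 6 arrays). Of the 3 COL1A1 probes 1 was higher, and their mean was 0.15. LUM was at -0.155 without the 6 arrays. Endothelial markers gave 3 risen and 2 fallen of 11, from LYVE1 (-0.19 ± 0.12) and CDH5 (-0.13 ± 0.07) to PECAM1 (0.10 ± 0.10) and VWF (0.25 ± 0.17), but 1 and 1 without the 6 arrays. There VWF was at 0.14, and PECAM1 (0.06) and CDH5 (-0.05) were no longer called. Over their probes VWF averaged 0.12 and CDH5 -0.04. Lymphocyte markers fell in 6 of 7, MS4A1, a B cell surface protein, by 0.13 (0.08 over its 2 probes), and in 3 without the 6 arrays. Of 5 cholangiocyte markers 1 was called, and none without the 6 arrays. Among 5 adipocyte markers CFD rose by 0.41 ± 0.13, and PLIN1 (-0.18 ± 0.11) and ADIPOQ (-0.13 ± 0.06) fell, the last a call lost without the 6 arrays, where 2 of the 5 rose and 1 fell. None of the 6 markers of exocrine pancreas was among the genes tested. The part of these cells in the members' ratios was not tested.

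Set beside other hormone-like proteins of the liver, LECT2 stood near the low end of a wide range, and the other 7 members lay inside it. Of 21 measured genes of that list of 27, 9 rose, 6 fell and 6 did not pass the test, with a median of 0.06. ENHO, which encodes the peptide adropin, was lowest by its brightest probe (-1.68 ± 0.20), with 2 of its 3 probes lower, 1 higher and a mean of -0.61, and FGL1, a fibrinogen-like hepatokine, followed (-1.31 ± 0.63). FST, the gene of the activin antagonist follistatin, rose most (1.56 ± 0.67). By brightest probes LECT2 (-1.35) stood between ENHO and FGL1, and GDF15 (0.74) below FST.

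**Figure D4:**
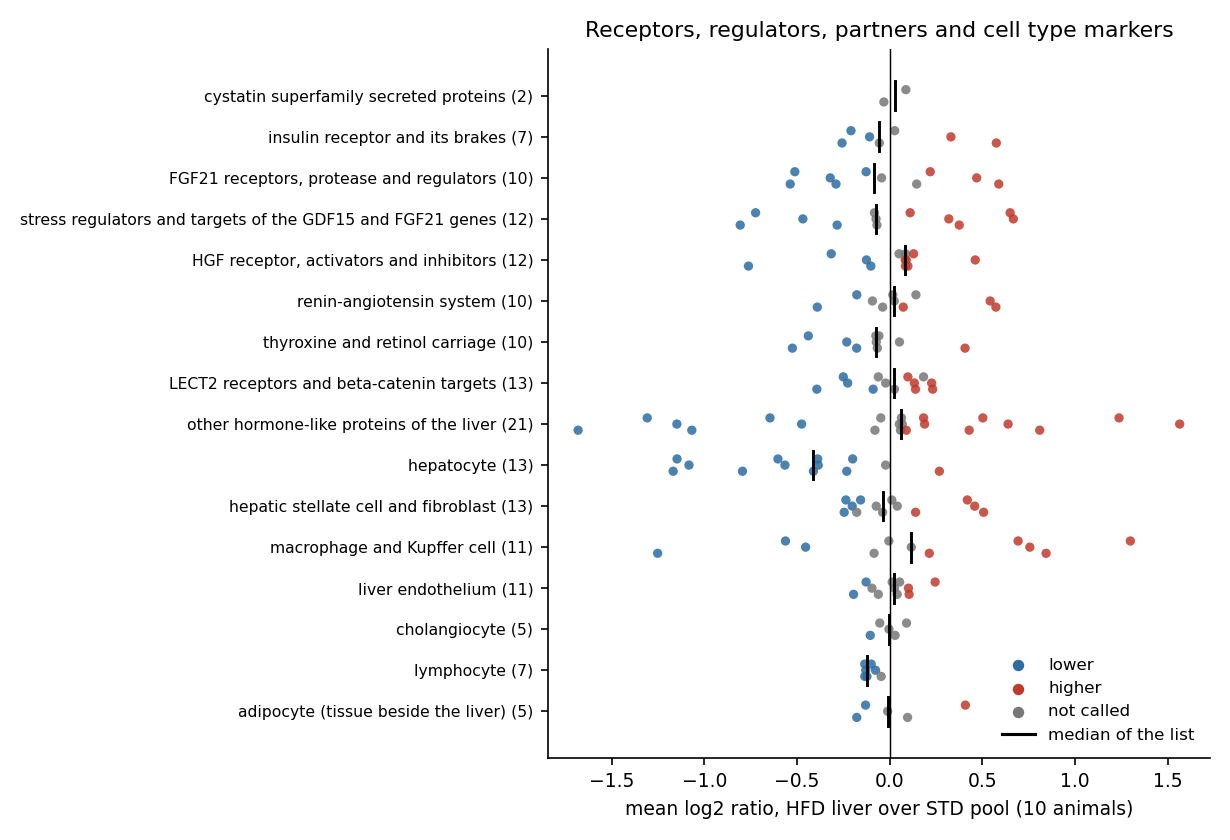
Mean log2 ratio over 10 animals (horizontal axis) of every measured gene in the lists of receptors, regulators, partners, other hormone-like proteins and cell type markers (vertical axis, with the number measured); each point is a gene coloured by its call and the black bar is the list's median. The hepatocyte markers lie mostly below 0 (median -0.41), while most other lists spread to both sides of it.

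The members did not form a group that varied together from animal to animal by the test used. Over the 28 pairs of members no Pearson correlation passed after adjustment (permutation test with 100000 resamples, Benjamini-Hochberg), with 4 pairs at an unadjusted p under 0.05, and no Spearman correlation passed either. The highest r was between AHSG and LECT2 (r = 0.802, rho = 0.830, adjusted p = 0.118), and it was 0.649 without the 2 animals farthest from the median of AHSG. Within scan session 1, with the mean of each dye orientation subtracted first, that r was 0.861. With HFD in Cy5 alone it was 0.564.

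For each member, the genes most like it over the 10 animals are given as a description without a test. For LECT2 these were TM9SF2, SMC4 and SSPN (r of 0.968, 0.956 and 0.948). For AHSG they were TACC2, RSL24D1 and ACOT6 (0.952, 0.950 and 0.948), and for FETUB they were PPP2CA, SERPINA1 and BCAS2 (0.976, 0.976 and 0.972). FETUB had 205 genes at r above 0.9, AHSG 50 and LECT2 39, against 9 for FGF21, 8 for TTR, 6 for GDF15, 4 for AGT and 0 for HGF. FGF21 was followed most closely by LPHN2, SELS and PCBP2 (0.966, 0.946 and 0.929), and GDF15 by RASL10A, DENND4C and 6530418L21RIK (0.937, 0.926 and 0.925). HGF ran with ERF, PPP1R12C and RGD1308380 (0.895, 0.881 and 0.872), AGT with ZFP942, ZNF717 and LOC498662 (0.926, 0.917 and 0.916), and TTR with FZR1, UOX and BDNF (0.922, 0.921 and 0.914). SERPINA1, a plasma protease inhibitor of hepatocytes, was the only gene among these that is also on one of the marker lists. These likenesses include whatever the arrays of an animal share, the arrays that stood apart among it.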

How the data were processed

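The deposited green and red spot intensities came from Agilent Feature Extraction 10.7.3.1, per the file headers. A second deposited table holds the authors' log2 ratios of each probe, made with limma per the submitters' processing notes, with scale and centring not stated. They correlated with the ratios computed here at r of 0.814 to 0.885 per animal, with medians of -0.0144 to 0.0185 and the same direction. Per the labels' protocols, 100 ng of RNA was labelled per channel. Which array holds HFD in which dye, and so the direction, was read from the array names.

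Intensities were corrected with normexp (offset 50) and loess in limma 3.58.1 under R 4.3.3. A probe was kept when well above background in either RNA on at least 10 of 20 arrays, and the brightest kept probe stood for its gene. The number of arrays limits the precision. On simulated ratios for the 13881 genes the test recovered 95.5% of shifts of 0.3 and 100% of those of 0.6 and 1.2. Exact permutation tests, correlations and intervals used Python 3.11.15 and SciPy 1.17.1.

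The members and lists were chosen with earlier results of these data known. All members are named, and from each list up to 2 called genes with the highest and up to 2 with the lowest ratio, or the gene with the smallest p where none was called. TIE1, TEK, INSR, FGFR1, PPARA, CREB3L3, MET, RBP4, CYP2E1, SPP2 and the further genes of the HGF and stress lists fall outside that rule. They were added after their values were seen. Alternatives were other signals, offsets, filters, summaries, dye orientations, slides, scan sessions and left-out animals. Some genes of the lists are counted but not reported by name here.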

Additional observations from a re-analysis of the deposited data

How the results depend on the processing

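AHSG, FETUB, LECT2, FGF21, GDF15 and HGF kept their direction and their call in each of the 26 alternatives. AGT and TTR were called in 2 of 26 each, the arrays of 1 dye orientation alone: with HFD in Cy3 only, AGT was 0.18 and TTR -0.61, and with HFD in Cy5 only both reversed, to -0.11 and 0.53. By probe, with HFD in Cy5 only, AGT 71760, 69249, 71759, 71758, 71756, 71755 and 71757 turned to -0.11, -0.13, -0.15, -0.23, -0.16, -0.073 and -0.23, TTR 63351, 23249, 63350, 23248, 13635 and 23247 to 0.53, 0.61, 0.40, 0.40, 0.19 and 0.18, and ADIPOQ to 0.0036; with HFD in Cy3 only, AGT 69248 turned to 0.14 and AGTR1B to 0.069. The cause of these turns was not tested. Other reversals of AGT lay within 0.07 of 0. With median centring AGT was -0.0021 (probe 71760), and probes 69249 and 71759 were -0.013 and -0.017. In the authors' log2 ratios 71759 was -0.0016, and with scan session as a term AGT 69248 was 0.039 and TTR 23249 0.0046. In session 1 alone AGT 69248 was 0.0097, and in session 3 alone 69249, 71759, 71758 and 71757 were -0.026, -0.044, -0.033 and -0.024. Without the 6 arrays AGT (71760) was -0.052, and 69249, 71759 and 71758 were -0.063, -0.040 and -0.010. Leaving out 1 animal at a time gave -0.014 to 0.026 for 71759, -0.033 to 0.0065 for 69248, -0.0087 to 0.039 for 71758 and -0.0088 to 0.033 for 69249. With the mean of all probes RXRA turned to -0.10 and PLAT to -0.049.

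In scan session 3 alone, with 9 animals, 2737 genes were higher and 2357 lower, and 14959 and 15295 probes. Without the 6 arrays 2527 genes and 18632 probes were lower. Of the differences between paired genes, TTR minus RBP4 was 0.14 in the authors' log2 ratios and no longer passed, turned to -0.12 with HFD in Cy3 only, where it passed in that direction, was 0.40 with HFD in Cy5 only, and lay between 0.12 and 0.17 with 1 animal left out. AHSG minus FETUB was -0.31 with HFD in Cy5 only, turned to 0.030 with HFD in Cy3 only, and lay between -0.19 and -0.11 with 1 animal left out. HGF minus MET was -0.25 with HFD in Cy3 only, where it passed, -0.0016 with HFD in Cy5 only, and between -0.17 and -0.072 with 1 animal left out. FGF21 minus GDF15 was -2.51 with the processed signals and -2.25 in the authors' log2 ratios. In the authors' log2 ratios 1 pair of members correlated after adjustment, and with HFD in Cy3 only 6 did. No paired analysis was possible because the series holds 1 group of animals and the pool is 1 RNA common to all. Dim signals limit the size of the GDF15 and FGF21 ratios.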
